A study of Mus musculus with 4 samples.

Results

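The B cell receptor complex and its signalling genes were examined in LT-HSC, the long-term haematopoietic stem cells of mouse bone marrow, and in ST-HSC, the short-term stem cells beside them. The set comprised 9 genes chosen by name: Cd79a, Cd79b, Blk, Blnk, Btk, Syk, Lyn, Cd22 and Ms4a1. All probe sets annotated to exactly 1 of these symbols were taken, which gave 13 of the 45037 probe sets for 8 of the 9 genes, and Lyn was not analysed here. A probe set is a group of short DNA probes on the array that together report the transcripts of a gene. The study hybridised 4 Affymetrix arrays, 2 for each population.

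Both populations were sorted as lineage-negative, cKit+, Sca1+ and CD135- marrow cells, and the CD34- fraction was taken as LT-HSC and the CD34+ fraction as ST-HSC. All mice were of the C57BL/6 strain, shared 1 genotype and carried no Mx-Cre, the interferon-inducible recombinase. Every mouse was given poly(I:C), a mimic of viral RNA, in 7 doses. The mice behind 3 arrays (both of LT-HSC, and replicate 2 of ST-HSC) were 7.5 weeks old at harvest, 4 weeks past the final dose. Those behind replicate 3 of ST-HSC were 8.5 weeks old, 3 weeks past it. The labels name neither pools nor single animals, so p-values measure only the spread between these arrays, which may be technical. For ST-HSC the tissue label of each array names LT-HSC next to a CD34+ gate, and the titles were followed. Cd34 itself read 18.3 and 23.5 on the LT-HSC arrays and 841 and 1142 on the ST-HSC arrays, in the direction of the gates.

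The B cell receptor is a membrane immunoglobulin that carries no signalling domain of its own and signals through the paired chains CD79A and CD79B. When antigen is bound, Src-family kinases such as BLK and LYN phosphorylate the tails of these chains, SYK docks there and phosphorylates the adaptor BLNK, and BLNK brings together BTK and phospholipase C gamma 2. CD22 restrains the signal by recruiting phosphatases, and Ms4a1 encodes CD20, a B cell surface protein. Most of these genes mark B-lineage cells, against which lineage antibodies select, whereas Btk and Syk are also used by myeloid cells, mast cells and platelets.

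Of the 8 genes with a probe set, 5 were higher in LT-HSC (Cd79a, Cd79b, Blk, Blnk and Ms4a1), and Btk, Syk and Cd22 did not differ beyond the error or lay too low to be tested. Of the 13 probe sets, 10 passed the filter on dim values, and 6 of these were higher in LT-HSC, 0 were higher in ST-HSC and 4 did not pass the threshold. By the same rule, an adjusted p under 0.05 in limma, 12.2% of all probe sets tested were called, 6.74% towards LT-HSC and 5.44% towards ST-HSC. At an unadjusted p under 0.05 in limma, 0 member genes were higher in ST-HSC as well. After normalization, both LT-HSC arrays lay above both ST-HSC arrays for 7 of the 10 member probe sets, against 27% of all probe sets tested, and the reverse order held for 0 of the 10, against 34.1% of all. Since the genes were chosen with earlier results of these arrays known, the share of members called is a description. The median difference over the 10 tested member probe sets was 3.23, against -0.08 over all probe sets tested. Differences here and below are LT-HSC minus ST-HSC on the log2(intensity + 16) scale after quantile normalization, with the moderated standard error (SE), and the pseudocount of 16 understates folds of dim probe sets.

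**Figure D1:**
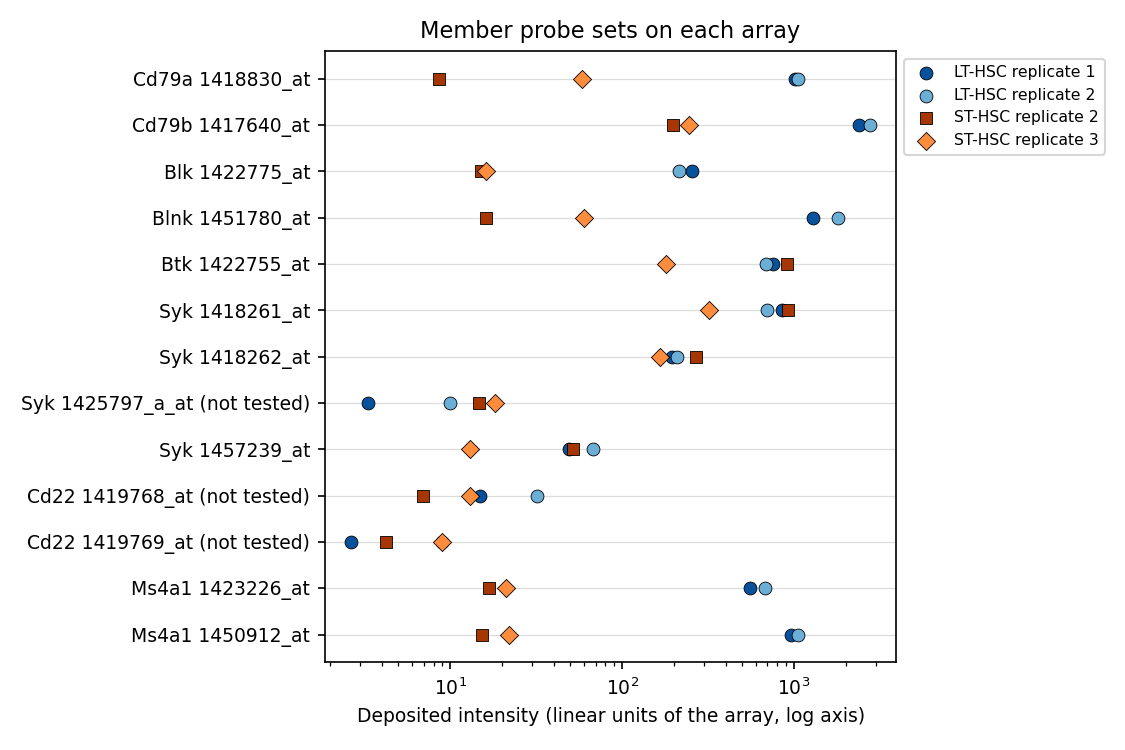
Deposited intensity (log axis) of each of the 13 member probe sets on each of the 4 arrays, with circles for LT-HSC, squares for ST-HSC replicate 2 and diamonds for ST-HSC replicate 3. For Cd79a, Cd79b, Blk, Blnk and both Ms4a1 probe sets the circles lie far to the right, while for Btk and for Syk 1418261_at the ST-HSC replicate 2 square lies at or above the circles and the replicate 3 diamond well below them.

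The paired signalling chains of the receptor were both bright in LT-HSC. Cd79a (probe set 1418830_at) read 1013 and 1060 on LT-HSC replicates 1 and 2, and 8.57 and 58.2 on ST-HSC replicates 2 and 3. The LT-HSC arrays lay close together, and the ST-HSC arrays lay far below them but apart from each other. The means on the log2 scale were 9.98 ± 0.07 (SD, n = 2) in LT-HSC and 5.41 ± 1.18 (SD, n = 2) in ST-HSC, a difference of 4.57 (SE 0.53, adjusted p = 0.00432) or 23.7-fold. Cd79b (1417640_at) read 2380 and 2776 on the LT-HSC arrays and 197 and 244 on the ST-HSC arrays, a difference of 3.40 (SE 0.27, adjusted p = 0.000969) or 10.5-fold. Its ST-HSC values agreed more closely than those of Cd79a. Cd79b read well above the filter level on both ST-HSC arrays, and Cd79a lay above it on ST-HSC replicate 3 only. The calls of these genes were narrow when an LT-HSC array was left out. Cd79a gave adjusted p = 0.0598 when LT-HSC replicate 1 was dropped and 0.0636 when replicate 2 was, and Cd79b gave 0.0417 and 0.0575, while their differences stayed between 3.23 and 4.53.

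The immunoglobulin heavy chain that completes the receptor was looked at after its values had been seen. Of the 8 tested probe sets of Ighm, the mu heavy chain, 7 were called towards LT-HSC, 0 towards ST-HSC and 1 in neither direction, with differences from 0.21 to 5.27. The probe set with the lowest of these, 1427351_s_at, was bright on all arrays, at 9121 and 10172 on the LT-HSC arrays and 8373 and 7448 on the ST-HSC arrays. Probe set 1425385_a_at of the same gene read 14195 and 14434 against 1353 and 175 (4.71, SE 0.82, adjusted p = 0.0168). Probe set 1425247_a_at read 553 and 2734 against 16.05 and 24.4, so that the LT-HSC arrays themselves lay apart. Igk, the kappa light chain, had 4 tested probe sets, none above 168 on any array, that went different ways. Those called towards LT-HSC were 1425738_at (1.87, adjusted p = 0.0137) and 1426178_at (2.20, adjusted p = 0.0104), 1452557_a_at was called towards ST-HSC (-1.57, adjusted p = 0.0366), and 1427757_at did not pass (1.51, adjusted p = 0.344). The probe sets of Ighm thus disagreed in size, and sequences shared between heavy chain genes can add to any of them.

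Blk, the Src-family kinase largely restricted to B-lineage cells, was also called in LT-HSC. Probe set 1422775_at read 254 and 214 in the LT-HSC pair and 15.2 and 16.1 in the ST-HSC pair. Both ST-HSC readings lay near the level below which probe sets were left out, equivalent to an intensity of about 16.6, so the ST-HSC arrays gave Blk little above the dim range. The log2 means were 7.99 ± 0.21 (SD, n = 2) and 4.93 ± 0.0038 (SD, n = 2), a difference of 3.06 (SE 0.31, adjusted p = 0.00243) or 8.36-fold, and with readings this low its size followed the pseudocount, at 3.97 with 1 and 1.95 with 64. The call held with each array left out, at differences from 2.88 to 3.25.

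Blnk, the adaptor that links SYK to BTK and phospholipase C gamma 2, differed about as much as Ms4a1, and which of them led depended on the pseudocount. Probe set 1451780_at read 1293 and 1794 in the LT-HSC pair and 16.1 and 59.8 in the ST-HSC pair. As for Cd79a, the higher ST-HSC reading was that of replicate 3, and both lay far below LT-HSC. The difference was 4.86 (SE 0.47, adjusted p = 0.00206) or 29.1-fold, and it was 5.48 at a pseudocount of 1, where Ms4a1 1450912_at stood at 5.71. The call held with each array left out, at differences from 4.31 to 5.55 and adjusted p of at most 0.0453.

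Ms4a1, which encodes CD20, had 2 probe sets that gave like readings. Probe set 1450912_at read 954 and 1048 in the LT-HSC pair and 15.3 and 21.9 in the ST-HSC pair, a difference of 4.86 (SE 0.30, adjusted p = 0.000413) or 29.0-fold. Probe set 1423226_at read 553 and 677 against 16.9 and 21.1, a difference of 4.20 (SE 0.31, adjusted p = 0.000755) or 18.3-fold. All 4 LT-HSC readings lay above all 4 ST-HSC readings, the ST-HSC readings lay in the dim range, and both calls held with each array left out. These probe sets share a target gene and are not independent of each other.

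Promoter sequence was at hand for 5 members. The windows of Cd79a and Blnk, which were called higher in LT-HSC, are printed with that of Btk, which was not called. Each line holds the 250 bases before a start given in RefSeq's promoter table in build GRCm38.p6, 5′ to 3′ on the strand of the gene, and capitals mark matches to 4 motifs of factors active in B-lineage and other blood cells. These were the octamer ATTTGCAT, bound by Oct proteins, the Ets core AGGAAGT, the E-box CAGGTG and the EBF core CCCNNGGG, each searched on both strands. The Btk window, and the Syk and Cd22 windows described below, lie inside the outer bounds that RefSeq gives these genes. They do not precede the outermost start. The motifs were picked after the sequences of the members had been seen, and the EBF core was shortened from a longer form after its matches had been counted.
Cd79a, chr7:24897247-24897496, plus strand: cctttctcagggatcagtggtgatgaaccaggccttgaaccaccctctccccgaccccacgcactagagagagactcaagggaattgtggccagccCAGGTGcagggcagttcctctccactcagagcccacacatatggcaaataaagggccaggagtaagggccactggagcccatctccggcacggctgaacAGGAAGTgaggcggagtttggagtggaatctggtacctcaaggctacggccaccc
Blnk, chr19:40994222-40994471, minus strand: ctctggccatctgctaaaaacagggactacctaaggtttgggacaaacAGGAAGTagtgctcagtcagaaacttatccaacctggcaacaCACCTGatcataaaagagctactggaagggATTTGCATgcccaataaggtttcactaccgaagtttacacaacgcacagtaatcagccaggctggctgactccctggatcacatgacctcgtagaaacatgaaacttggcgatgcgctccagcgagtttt
Btk, chrX:134583141-134583390, minus strand: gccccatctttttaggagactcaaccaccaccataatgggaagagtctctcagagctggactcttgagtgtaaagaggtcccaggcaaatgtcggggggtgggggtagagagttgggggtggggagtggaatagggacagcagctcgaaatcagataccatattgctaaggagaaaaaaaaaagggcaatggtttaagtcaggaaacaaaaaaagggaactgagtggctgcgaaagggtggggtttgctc

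Counted back from the start, Cd79a held an E-box from -154 to -149 and an Ets core from -55 to -49. Blnk held an Ets core from -202 to -196, an E-box from -160 to -155, which reads CACCTG on this strand, and an octamer from -130 to -123. No full match to any of the 4 motifs was found in the Btk window. Each of the 2 Syk windows held 1 E-box, and that of Cd22 held an E-box from -245 to -240 and an EBF motif from -48 to -41. The Btk window was thus the only member window without a match, and Cd22, which was not called, held 2, as many as Cd79a. Whether matches go with expression was not tested. Of 32851 windows of this length in the table, 1.6% held the octamer, 7.69% the Ets core, 17.2% the E-box and 11.8% the EBF motif. The matches describe these letters only. A window without a match, such as that of Cd79a for the EBF core, may hold a site of other letters. No match in the printed windows overlapped another.

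Btk and Syk, the kinases downstream that other blood cells also use, behaved differently from the receptor chains. Btk (1422755_at) read 758 and 687 on the LT-HSC arrays, and 913 and 179 on ST-HSC replicates 2 and 3. The groups overlapped, since ST-HSC replicate 2 was the highest of the 4 arrays and ST-HSC replicate 3 the lowest. The LT-HSC pair differed by 0.10 on the log2 scale and the ST-HSC pair by 2.36, and the difference between groups was 0.71 (SE 0.68, 95% interval -0.91 to 2.33, adjusted p = 0.524). Its direction depended on the ST-HSC array used. Without ST-HSC replicate 2, Btk was called higher in LT-HSC by 1.95 (adjusted p = 7.58e-06), and without ST-HSC replicate 3, which leaves mice of 1 age and interval, it was called lower by -0.48 (adjusted p = 0.0409). With 1 ST-HSC array left, that array was assumed to vary like the LT-HSC pair.

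Syk had 3 tested probe sets, and none passed. Probe set 1418261_at, the brightest, read 850 and 699 in the LT-HSC pair and 921 and 321 in the ST-HSC pair, with the same order of arrays as Btk and a difference of 0.39 (SE 0.49, 95% interval -0.78 to 1.56, adjusted p = 0.634). It too was called higher in LT-HSC without ST-HSC replicate 2 (1.23, adjusted p = 0.000248), and it lay at -0.41 without ST-HSC replicate 3 (adjusted p = 0.0863). Probe set 1418262_at read 194 and 209 against 270 and 165, again with the ST-HSC arrays at both ends, and differed by 0.02 (95% interval -0.74 to 0.79, adjusted p = 0.969). Probe set 1457239_at read 48.8 and 67.5 against 51.9 and 12.98 (0.91, 95% interval -0.12 to 1.93, adjusted p = 0.208), and without ST-HSC replicate 2 it too was called (1.45, adjusted p = 0.0204). All 3 therefore read lower in ST-HSC replicate 3 than in the other ST-HSC array. A further probe set, 1425797_a_at, lay below the filter, at 3.33 and 10.0 against 14.7 and 18.2, and with no filter it differed by -0.43 (adjusted p = 0.379). The intervals of Btk and of the brightest Syk probe set reach past a log2 difference of 1, so these arrays do not show that the kinases were equal in both populations.

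Cd22, the inhibitory receptor of mature B cells, was dim on every array. Probe set 1419768_at read 14.9 and 31.8 in the LT-HSC pair and 6.97 and 13.1 in the ST-HSC pair, and 1419769_at read 2.64 and 8.98 against 4.22 and 8.96. Neither passed the filter. With no filter they differed by 0.69 (SE 0.30, adjusted p = 0.24) and 0.04 (SE 0.22, adjusted p = 0.931). Cd22 thus gave no reading above 31.8 on the same LT-HSC arrays on which Cd79a, Cd79b, Blnk and Ms4a1 were called.

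**Figure D2:**
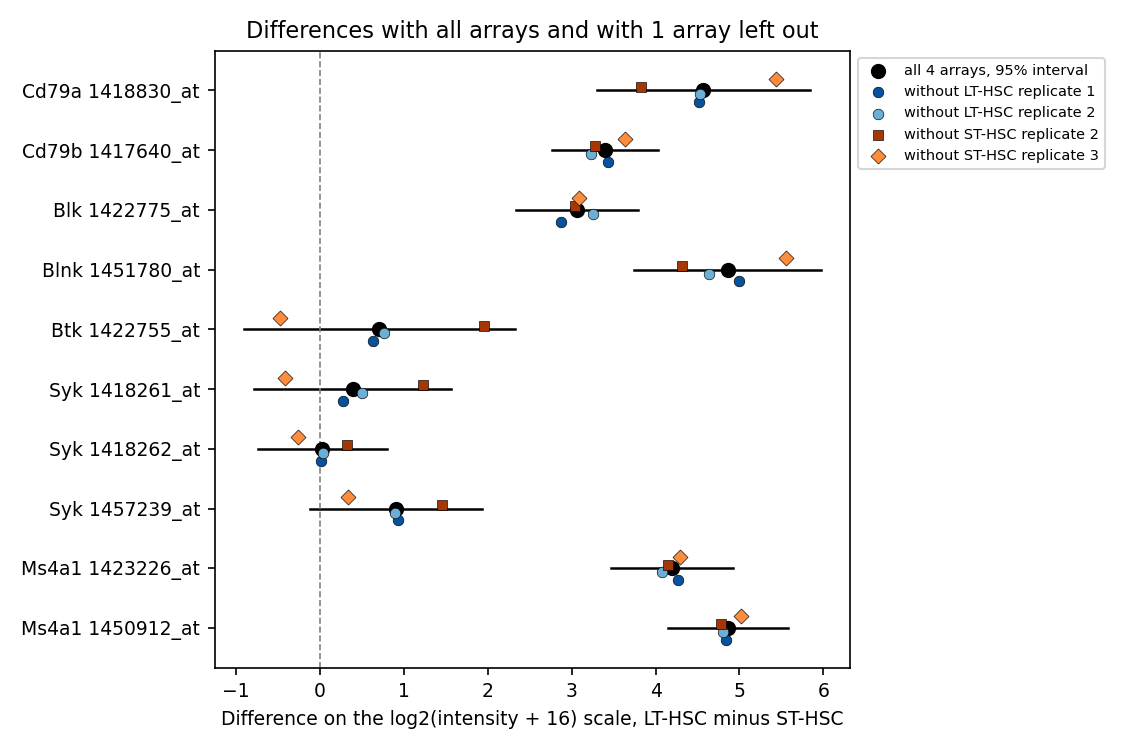
Difference between LT-HSC and ST-HSC on the log2(intensity + 16) scale for the 10 tested member probe sets, with all 4 arrays (black circles with 95% intervals) and with each array left out in turn (coloured). Cd79a, Cd79b, Blk, Blnk and Ms4a1 stay between 2.88 and 5.55 throughout, whereas Btk moves from -0.48 without ST-HSC replicate 3 to 1.95 without ST-HSC replicate 2.

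The other genes around the receptor were taken from lists drawn up for this comparison. The brightest probe set stood for each gene, and over all 12828 genes so tested 14.6% were called, 8.12% towards LT-HSC and 6.47% towards ST-HSC, with a median difference of -0.08. Of 78 tested pathway genes outside the members, 14 were called towards LT-HSC and 5 towards ST-HSC. With 1 array left out these totals moved, falling without either LT-HSC array and rising without either ST-HSC array. The totals over all probe sets moved the same ways, and each such fit leaves 1 array in a group.

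Of 11 tested co-receptors and inhibitory receptors of B cells, 4 were higher in LT-HSC, 2 higher in ST-HSC and 5 did not pass, with a median of 0.26. Fcrla, an intracellular Fc receptor-like protein of B cells, read 1448 and 1399 in the LT-HSC pair and 16.5 and 27.3 in the ST-HSC pair (5.21, SE 0.31, adjusted p = 0.000359). Of its further probe sets, one was called too (3.49, adjusted p = 0.00135) and the other was not (1.40, adjusted p = 0.104). Cd40, the receptor for T cell help, read 147 and 157 against 6.84 and 8.82 (2.94, SE 0.30, adjusted p = 0.00247), and Tnfrsf13c, the BAFF receptor of B cells, 969 and 981 against 96.9 and 139 (2.92, SE 0.32, adjusted p = 0.00348). The tetraspanin gene Cd81 was the fourth gene called in LT-HSC (1.03, adjusted p = 0.0144). Those called in ST-HSC were the inhibitory receptor genes Fcgr2b (-2.41, adjusted p = 0.00928) and Lair1 (-1.55, adjusted p = 0.0268). Cd81, Fcgr2b and Lair1 complete a short list and were named after their values were seen. Cr2 and Fcer2a, markers of mature B cells, and Cd5 lay below the filter.

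Of 25 tested kinases, adaptors and lipid enzymes below the receptor, 1 was higher in LT-HSC, 1 was higher in ST-HSC and 23 did not pass, with a median of 0.06. Bank1, a scaffold of B cells, read 696 and 1127 in the LT-HSC pair and 33.5 and 42.5 in the ST-HSC pair (4.07, SE 0.35, adjusted p = 0.00141). Dapp1, an adaptor recruited by phosphoinositides, read 834 and 648 against 1813 and 1464 (-1.29, SE 0.25, adjusted p = 0.0233), and its second probe set was called the same way (-1.64, adjusted p = 0.0229). Plcg2, the phospholipase that BLNK and BTK activate, read 1430 and 1167 against 1011 and 748 (0.42, SE 0.27, 95% interval -0.21 to 1.06, adjusted p = 0.331), and it was named for that role after its values were seen.

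Of 15 tested genes of the protein kinase C, Ras, NF-kappa-B and NFAT steps, 4 were higher in LT-HSC, 0 higher in ST-HSC (1 at an unadjusted p under 0.05 in limma) and 11 did not pass, with a median of 0.51. Rasgrp3, a Ras activator that diacylglycerol recruits in B cells, had the largest difference of the pathway genes named on this scale, with readings of 2447 and 2586 in the LT-HSC pair and 16.4 and 19.3 in the ST-HSC pair (6.14, SE 0.28, adjusted p = 0.000169). Its second probe set differed by 5.99 (adjusted p = 0.000195). Rasgrp1, its relative of T cells, differed by 2.40 (SE 0.38, adjusted p = 0.0124) and Map2k1, the kinase MEK1, by 1.16 (SE 0.22, adjusted p = 0.0225). Of 12 phosphatases and ubiquitin ligases that limit the signal, 2 were higher in LT-HSC, 1 was higher in ST-HSC and 9 did not pass, with a median of 0.04. Tnfaip3 (A20, a brake on NF-kappa-B) differed by 2.45 (SE 0.27, adjusted p = 0.00329) and Ptpn22, a lymphoid phosphatase, by 2.22 (SE 0.30, adjusted p = 0.00747). Sh2b2, an adaptor, was the one called in ST-HSC (-1.58, SE 0.35, adjusted p = 0.0347) and lost its call with any array left out.

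Of 15 tested genes of the pre-B cell receptor and B-lineage factors, 3 were higher in LT-HSC, 1 was higher in ST-HSC and 11 did not pass, with a median of 0.65. Those in LT-HSC were Irf4, a factor of activated B cells and plasma cells, at 1856 and 2114 against 24.6 and 19.1 (5.67, SE 0.29, adjusted p = 0.000226), Pou2af1, the coactivator of Oct proteins in B-lineage cells (5.50, SE 0.40, adjusted p = 0.000755), and Il7r, the interleukin-7 receptor (4.59, SE 0.37, adjusted p = 0.001). A second probe set of Irf4 differed by 1.496 and did not pass (adjusted p = 0.0622), and one of Il7r did (2.53, adjusted p = 0.00709). Bach2, which represses the plasma cell programme, was called in ST-HSC (-1.47, SE 0.32, adjusted p = 0.0311) and was named after its value was seen. The surrogate light chain genes of the pre-B cell receptor did not pass and were named for their role: Igll1 differed by 0.65 (adjusted p = 0.206), Vpreb1 by -0.60 (adjusted p = 0.638) and Vpreb3 by 0.36 (adjusted p = 0.476). Of the 14 genes named from these lists by rule, 8 stayed past the threshold when LT-HSC replicate 1 was dropped and 7 when replicate 2 was, and 13 did so when either ST-HSC array was.

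**Figure D3:**
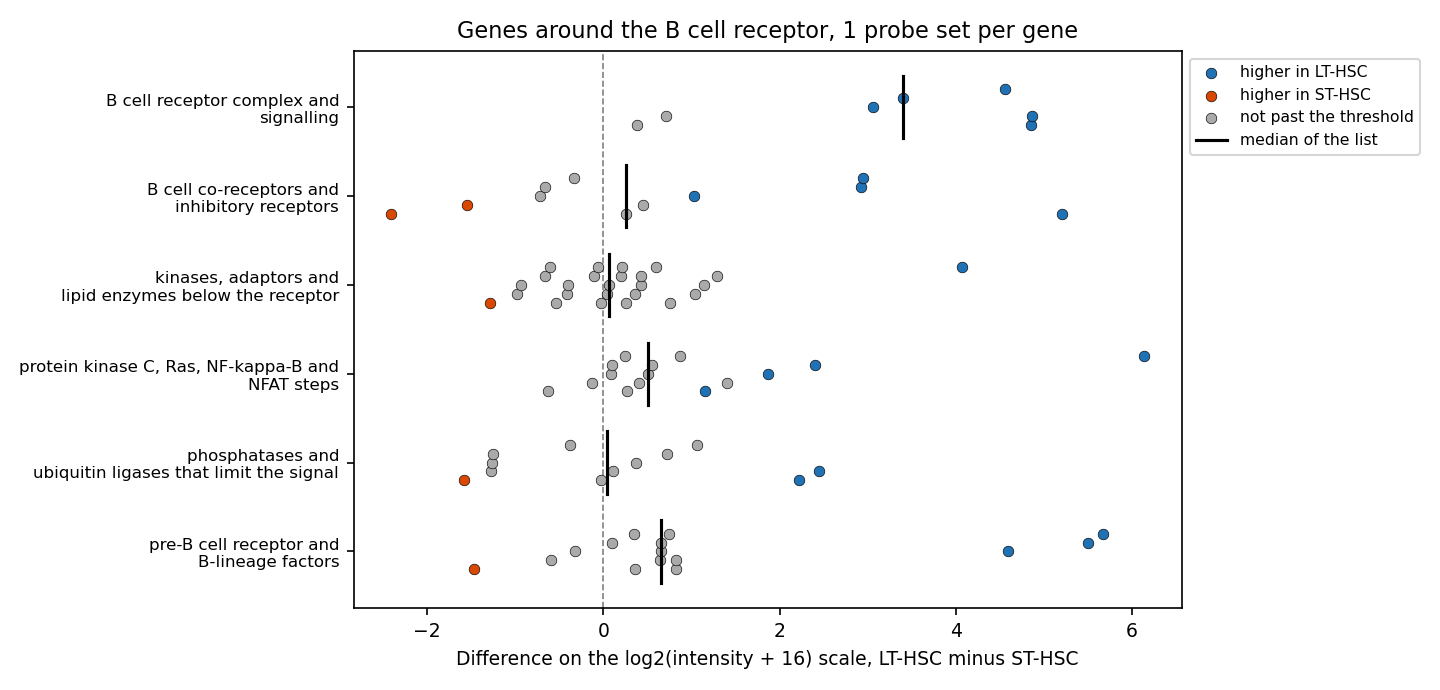
Difference between LT-HSC and ST-HSC on the log2(intensity + 16) scale for each tested gene of 6 lists, 1 point per gene, coloured by its call, with a black bar at the median of the list. The receptor complex has its median at 3.40 with 5 of 7 genes called in LT-HSC, while in the list of kinases, adaptors and lipid enzymes 23 of 25 genes did not pass and the median was 0.06.

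Markers of plasma cells moved with these genes. All 11 plasma cell markers were higher in LT-HSC, with differences from 3.34 to 7.77, and their summed intensity was 70238 and 71237 on the LT-HSC arrays and 1792 and 3236 on the ST-HSC arrays. Of 7 tested B-lineage surface markers, 4 were called towards LT-HSC and 0 towards ST-HSC, but these 4 are the members Cd79a, Cd79b, Blk and Ms4a1. The list summed to 4794 and 5350 in the LT-HSC pair and to 522 and 550 in the ST-HSC pair. Most of the LT-HSC sums came from the same 4 members, so the sums give no separate view. Pax5, the factor that maintains B cell identity, read 41.1 and 14.8 against 13.6 and 6.49 (0.82, adjusted p = 0.276), and Ebf1, which specifies the lineage, 27.3 and 40.7 against 19.4 and 16.7 (0.65, adjusted p = 0.192). Cd72, an inhibitory receptor of B cells and the other tested gene of the list, read 97.8 and 116 against 233 and 162, with both ST-HSC arrays above LT-HSC (-0.67, adjusted p = 0.2). No probe set of these lists was at 0 on any array. In bulk RNA, a few cells with much of a transcript and many cells with little of it cannot be told apart. The part of plasma or B-lineage cells in the differences of the members was not tested.

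The array on which Btk and Syk were low also carried granulocyte transcripts. The summed intensity of 9 markers of maturing granulocytes was 47902 on ST-HSC replicate 3, against 3446 on ST-HSC replicate 2 and 3829 and 521 on LT-HSC replicates 1 and 2. Of the 8 tested markers none was called in either direction (0 of 8 in limma, each with an adjusted p of at least 0.0971, and 2 higher in ST-HSC at an unadjusted p under 0.05), with a median of -3.77. Erythroid markers were also highest on that array, at 786 against 147 on ST-HSC replicate 2 and 97.7 and 194 on the LT-HSC arrays. Klf1 alone gave 636 of that 786. The other genes of the list read from 12.4 to 55.8 on that array, each at its highest of the 4 arrays. These transcripts, the age of the mice and the interval after injection go together on ST-HSC replicate 3 and cannot be told apart. Of the remaining lists, 3 of 8 T and NK cell markers, 5 of 11 macrophage and dendritic cell markers, 2 of 7 platelet and megakaryocyte markers and 1 of 6 mast cell and basophil markers were higher in LT-HSC, and 1, 0, 2 and 1 of them were higher in ST-HSC. The 5 macrophage and dendritic cell markers were Cd68 and the antigen presentation genes Cd74, H2-Aa, H2-Ab1 and H2-Eb1. The other 6 tested did not pass, among them Adgre1, Itgax and Siglech. Of 8 sort and stem cell markers, Cd34 was called in ST-HSC, 0 were called in LT-HSC and 7 did not pass (of all 8, Cd34 included, 0 leaned to LT-HSC and 4 to ST-HSC at an unadjusted p under 0.05 in limma).

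**Figure D4:**
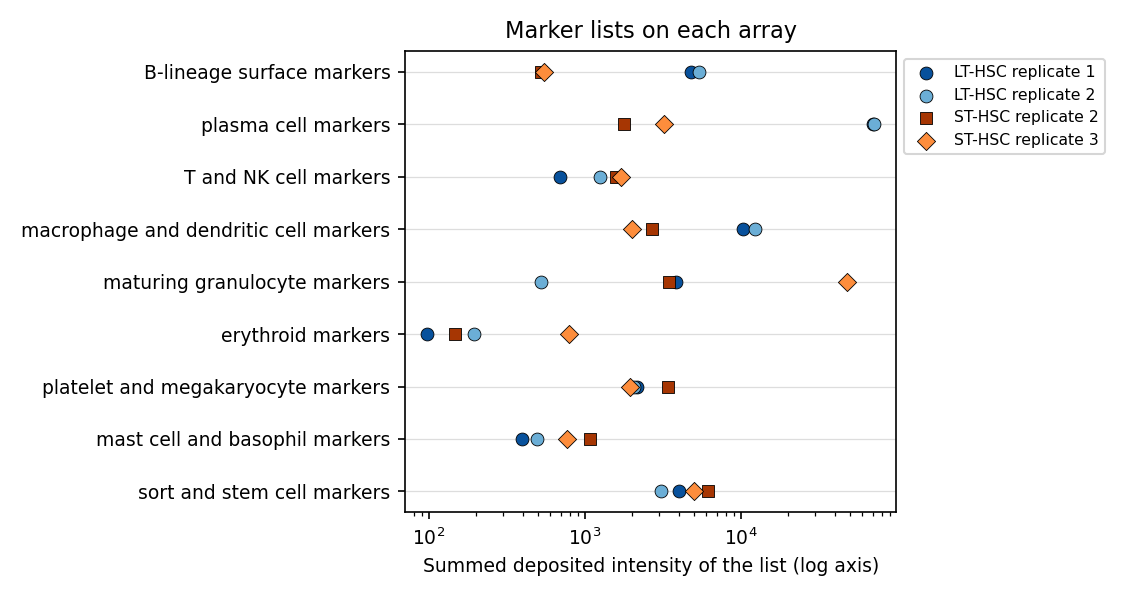
Summed deposited intensity (log axis) of each marker list on each of the 4 arrays, with circles for LT-HSC, squares for ST-HSC replicate 2 and diamonds for ST-HSC replicate 3. Plasma cell markers separate the populations, at 70238 and 71237 against 1792 and 3236. Granulocyte markers are highest on ST-HSC replicate 3, at 47902, and lowest on LT-HSC replicate 2, at 521.

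Genes running closest over the 4 arrays to the average of Cd79a and Cd79b were sought among the 12821 tested genes outside the members. The measure was the Euclidean distance between log2 values centred on each gene's mean. The nearest was Rab30, a small GTPase (distance 0.22), with readings of 372 and 417 in the LT-HSC pair and 3.15 and 17.4 in the ST-HSC pair. Then came Gpr18, a G protein-coupled receptor (0.34), Stxbp2, a protein of vesicle fusion (0.41), Nrxn3, a neurexin (0.44), Tex261 (0.48), Crat, carnitine acetyltransferase (0.50), Pls1, a plastin (0.51), and Pon3, a paraoxonase (0.52). Each was higher in LT-HSC, with differences from 3.58 for Crat to 4.14 for Nrxn3. Of the members, Cd79a and Cd79b each lay at 0.74 from their own average, farther than any gene named above. Blnk lay at 0.93, Ms4a1 at 1.04 and Blk at 1.22, while Cd22 at 3.34, Syk at 4.06 and Btk at 4.07 were far from that average. With 4 arrays the distance mainly reflects the size of the group difference, and of the further probe sets of Rab30, Stxbp2, Nrxn3, Tex261 and Crat none (0) was called higher in LT-HSC.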

How the data were processed

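The deposited table holds 1 intensity value per probe set and array on a linear scale. Per the labels' protocols, RNA of sorted cells was amplified in 2 rounds and labelled with biotin, which can distort dim transcripts. Neither probe summarisation nor array scaling is named in the sources used here. Array medians ran from 19.1 to 28.3. Since medians and upper quartiles of log2(intensity + 16) spanned 0.33 and 0.35, above a limit of 0.2, arrays were quantile normalized. The 64 control probe sets were then dropped, with probe sets not above the 40th percentile of mean signal, which left 27022. The comparison used limma 3.58.1 (R 4.3.3, eBayes with an intensity trend, 2 residual and 4.85 prior degrees of freedom) and Benjamini-Hochberg adjustment over all probe sets tested. An exact permutation test of 2 against 2 arrays cannot go below p = 0.33. The procedure was tested on simulated data. Names came from the platform annotation (34945 probe sets with 1 symbol, 932 with several and 9160 unnamed), and promoters from RefSeq, GRCm38.p6. Members and lists were chosen with earlier results of these data known. Named besides the members were up to 3 genes of smallest p per pathway list and the 8 nearest to the Cd79a and Cd79b average. Exceptions are marked. Part of the genotype and 1 marker gene are not reported here.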

Additional observations from a re-analysis of the deposited data

How the results depend on the processing

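The number of arrays limits these results, and no depth is known for intensities. The 6 member calls (Cd79a, Cd79b, Blk, Blnk and 2 of Ms4a1) held under 8 alternatives of scaling, pseudocount, filter, trend and threshold. The threshold alternative, 0.1, was looser than the main one and could not have removed a call. Leaving out 1 array gave from 4 to 9 member calls, from 7 to 41 pathway calls (19 with all arrays) and from 357 to 8786 calls over all probe sets (3292 with all arrays, 5730 at a threshold of 0.1). Cd79a lost its call without either LT-HSC array and Cd79b without LT-HSC replicate 2. Over the arrays left out, the lowest and highest differences were -0.48 and 1.95 for Btk, -0.41 and 1.23 for Syk 1418261_at, and -0.26 and 0.32 for Syk 1418262_at, the lowest each time without ST-HSC replicate 3 and the highest without ST-HSC replicate 2. The last also turned to -0.066 with no scaling, which moved the median of all probe sets from -0.08 to -0.16. Beyond the fewer samples, the cause was not tested. No paired analysis was possible because the groups share only replicate number 2.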
